A study of Homo sapiens with 6 samples.

Results

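The PDGF, VEGF and angiopoietin ligands are secreted growth factors that cells use to direct blood vessels, lymphatic vessels and connective tissue. They were taken as the genes PDGFA, PDGFB, PDGFC, PDGFD, VEGFA, VEGFB, VEGFC, ANGPT1 and ANGPT2, and every probe set whose RefSeq transcript belongs to one of them was read. All 9 genes were present with 1 probe set each, among 1259 probe sets and 927 named genes in all. The treated group was 3 arrays of HCT-15 cells, an established human colon cancer line, exposed to 5-aza-2'-deoxycytidine, a cytosine analogue that blocks the upkeep of DNA methylation. The other group was 3 arrays of the same line without the drug. Dose and duration were not given in the sources used here, and no label says whether the replicates were grown apart. The p-values therefore reflect the scatter among these arrays, which could be technical alone. One array, untreated replicate 3, has a title that names it treated while its treatment entry, source name and the letter that opens the title mark it as untreated, and it was kept as untreated. The titles of the 3 treated arrays name them treated but also hold the word control. Their treatment entry and opening letter mark them as treated. Values are log2 signal after RMA, and a log2 change is treated minus untreated.

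Platelet-derived growth factors are dimers that bind the receptor kinases PDGFRA and PDGFRB, mostly on fibroblasts, pericytes and smooth muscle cells. Vascular endothelial growth factors share the same cystine-knot fold and bind FLT1, KDR and FLT4 on blood and lymphatic endothelium. Angiopoietins bind the endothelial receptor TEK. In colon tumours the cancer cells themselves make several of these ligands, while most of their receptors sit on neighbouring stromal and endothelial cells.

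Treatment was followed by a changed signal for 7 of the 9 ligands, with rises and falls among the PDGF genes, falls of VEGFA and VEGFB and rises of ANGPT1 and ANGPT2. PDGFA was 3.37-fold higher in treated cells, ANGPT1 was 1.78-fold higher, ANGPT2 was 1.67-fold higher and PDGFD was 1.6-fold higher. VEGFA was 1.89-fold lower, VEGFB was 1.69-fold lower and PDGFC was 1.67-fold lower. PDGFB and VEGFC were not called. A probe set is said to have risen or fallen, or is called, where its p from limma, after Benjamini-Hochberg adjustment over all 1259 probe sets, was under 0.05. In bulk RNA, a change in the RNA of each cell and a change in the share of cells that make it cannot be told apart.

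**Figure D1:**
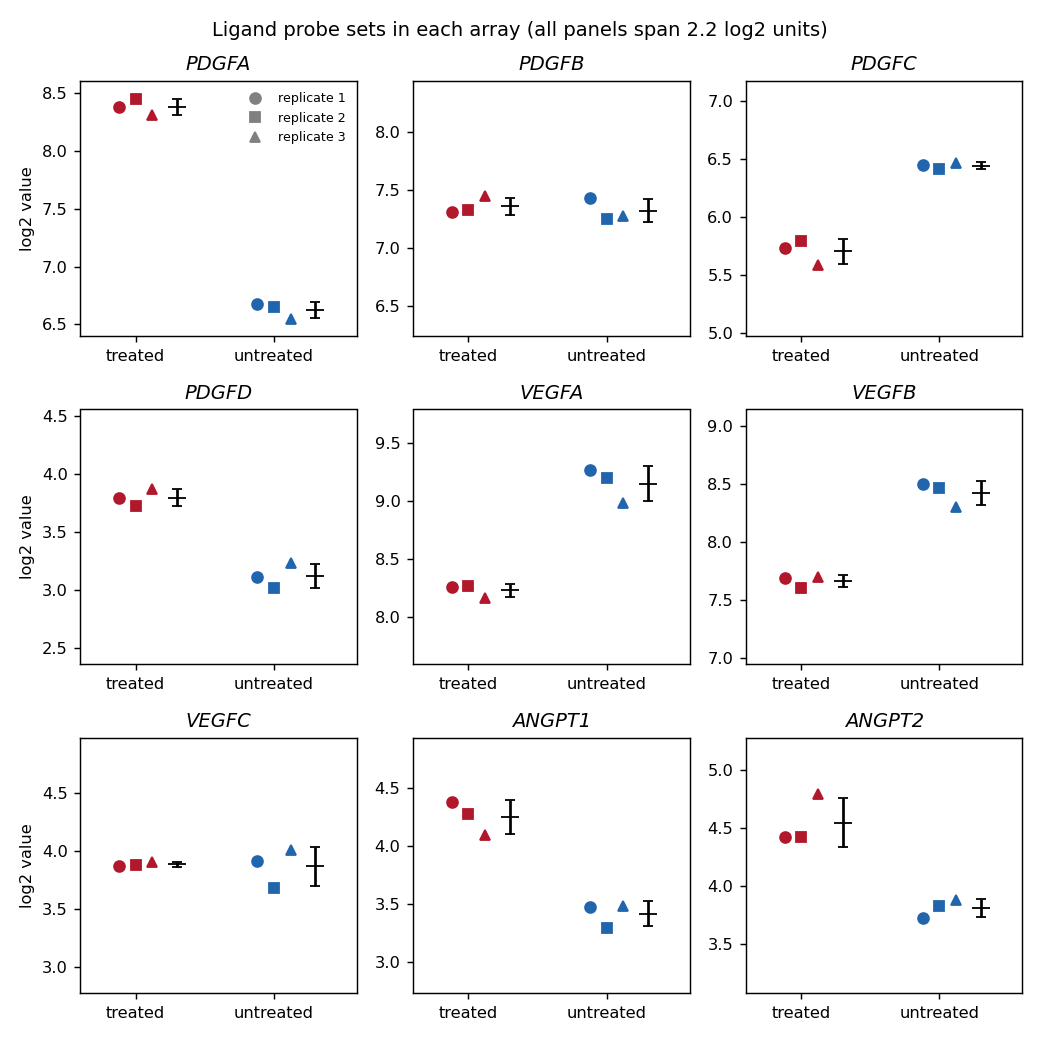
Log2 value of each ligand's probe set in the treated arrays (left, red) and the untreated arrays (right, blue), with the mean and SD of 3 arrays as a black bar beside the points and every panel drawn to the same span. The groups are apart in 7 panels and overlap for PDGFB and VEGFC.

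Those 7 calls, 4 rises and 3 falls, stand against a background in which 34.8% of all probe sets were called, 18.0% as rises and 16.8% as falls. Over all probe sets there were 227 rises and 211 falls, and with every array set to the same median 197 rises and 311 falls, while the ligands kept 4 rises and 3 falls under both scalings. The 3 treated values and the 3 untreated values did not overlap in the same 7 ligands, as they did in 46.1% of all probe sets. All 7 also differed by at least 1.5-fold, which 13.4% of the probe sets did with a call, and all 7 passed an adjusted p under 0.01, as 26.2% of the probe sets did. The median log2 change was 0.04 over the 9 ligands and -0.01 over all probe sets, and the median size of change, whatever its direction, was 0.74 for the ligands and 0.15 for all probe sets. The ligands were chosen with results of these arrays known, so their share of calls is a description. Without untreated replicate 3, the untreated array whose title names it treated, the same count of 7 ligands was called, again as 4 rises and 3 falls.

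**Figure D2:**
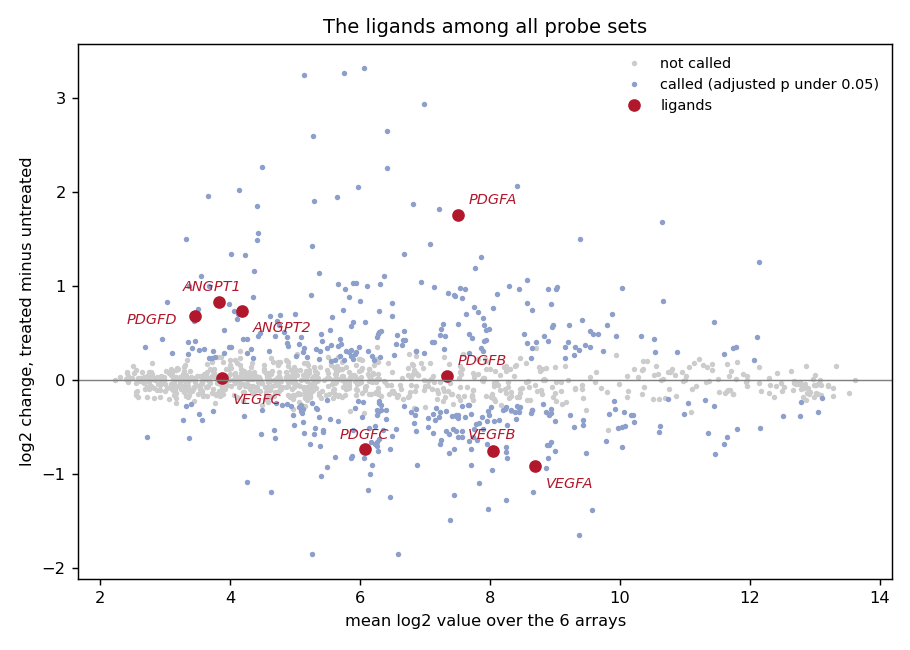
Log2 change, treated minus untreated, against the mean log2 value over the 6 arrays for 1259 probe sets, with the 9 ligands in red. PDGFA lies among the higher rises at 1.75, PDGFD, ANGPT1 and ANGPT2 lie among dim probe sets, and VEGFA, VEGFB and PDGFC lie between -0.74 and -0.92.

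Since the drug acts on DNA methylation, which falls on cytosines followed by guanine (CpG), sequence before the start of a gene is shown for ligands that rose (PDGFA, PDGFD), fell (VEGFB) and were not called (VEGFC). A RefSeq promoter table of build GRCh38.p14 held windows for 4 of the 9 ligands. The 250 bases upstream of the start are given 5′ to 3′ on the strand of the gene, with each CpG in capitals. For PDGFA the table lists several starts, and the one with the most CpG is printed.
PDGFA, chr7:519847-520096, minus strand: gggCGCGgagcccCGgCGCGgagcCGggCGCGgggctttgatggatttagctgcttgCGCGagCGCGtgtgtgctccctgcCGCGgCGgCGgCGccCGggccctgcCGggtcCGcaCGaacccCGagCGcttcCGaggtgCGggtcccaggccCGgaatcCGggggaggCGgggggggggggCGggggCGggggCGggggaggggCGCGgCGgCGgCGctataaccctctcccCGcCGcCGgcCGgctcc
PDGFD, chr11:104164148-104164397, minus strand: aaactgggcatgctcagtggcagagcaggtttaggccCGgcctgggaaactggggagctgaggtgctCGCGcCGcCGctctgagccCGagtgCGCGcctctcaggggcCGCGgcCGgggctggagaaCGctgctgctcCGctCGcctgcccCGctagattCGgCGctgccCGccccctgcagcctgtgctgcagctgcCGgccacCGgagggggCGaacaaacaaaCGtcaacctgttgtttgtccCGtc
VEGFB, chr11:64234334-64234583, plus strand: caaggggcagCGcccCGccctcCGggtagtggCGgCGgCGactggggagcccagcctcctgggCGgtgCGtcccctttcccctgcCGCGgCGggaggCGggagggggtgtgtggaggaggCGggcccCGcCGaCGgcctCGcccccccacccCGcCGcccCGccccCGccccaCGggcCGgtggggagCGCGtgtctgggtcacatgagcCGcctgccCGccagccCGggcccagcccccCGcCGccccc
VEGFC, chr4:176792923-176793172, minus strand: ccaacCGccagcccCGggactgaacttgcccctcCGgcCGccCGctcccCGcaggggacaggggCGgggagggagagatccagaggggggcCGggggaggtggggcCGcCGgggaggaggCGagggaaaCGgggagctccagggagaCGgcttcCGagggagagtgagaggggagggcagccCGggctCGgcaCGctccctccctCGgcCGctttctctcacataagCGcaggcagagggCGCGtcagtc

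All 4 printed windows were rich in CpG. The PDGFA window, picked as the richest of its starts, held 40 CpG, a number reached in 2.2% of the 35116 windows of the table. The windows of its other starts held 17, 22 and 23, reached in 39.0%, 28.0% and 25.8% of windows. Upstream of VEGFB there were 30 CpG (as many in 12.4% of windows), upstream of PDGFD 23 (25.8%) and upstream of VEGFC 22 (28.0%), against a median of 11. The motif GGGCGG, counted on both strands and itself containing a CpG, occurred 3 times in the printed PDGFA window, 6 times in that of VEGFB, 2 times in that of VEGFC and 1 time in that of PDGFD. The PDGFA windows with 17, 22 and 23 CpG held 4, 5 and 1 copies. At least 1 copy was present in 42.6% of all windows. Methylation of these windows was not analysed here, and which start the cells use is not known from the arrays.

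PDGFA encodes the A chain of PDGF, whose homodimer acts through PDGFRA. Its log2 values were 8.38, 8.45 and 8.30 in treated replicates 1 to 3, against 6.68, 6.65 and 6.55 in untreated replicates 1 to 3. Every treated array stood above every untreated array, with a gap of 1.62 between the nearest values. The means were 8.38 ± 0.07 in treated cells and 6.62 ± 0.07 in untreated cells (SD, n = 3 each), a log2 change of 1.75 ± 0.07 (SE, adjusted p = 4.86e-08 in limma's test). Among all rises on the array it ranked 18. Its probe set carries the name ending for sets that read several transcript forms of a gene, so long and short A-chain transcripts were not told apart.

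The B chain, encoded by PDGFB, binds both PDGF receptors. Its log2 values were 7.31, 7.33 and 7.44 in treated cells, against 7.43, 7.25 and 7.27 in untreated cells. These ranges overlapped, since untreated replicate 1 lay close to the highest treated value. The log2 change was 0.04 ± 0.08 (SE, adjusted p = 0.76), with a 95% interval for the fold from 0.912 to 1.16. The ending of this probe set's name marks sets that can bind transcripts of more than one gene, so its value is less certain.

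PDGFC and PDGFD are released with an extra CUB domain that must be cut off before the growth factor can bind, PDGF-CC through PDGFRA and PDGF-DD mainly through PDGFRB. PDGFC gave log2 values of 5.73, 5.79 and 5.58 in treated cells, against 6.45, 6.41 and 6.47 in untreated cells. Here the treated arrays were the lower ones, 0.62 apart from the untreated arrays at their closest, and the log2 change was -0.74 ± 0.08 (SE, adjusted p = 2.39e-05). PDGFD gave 3.79, 3.72 and 3.87 in treated cells, against 3.11, 3.02 and 3.23 in untreated cells. It went the other way, with all treated values higher and a log2 change of 0.68 ± 0.08 (SE, adjusted p = 6.49e-05). Only 12.4% of probe sets had a mean value at or below that of PDGFD, and no detection call was used here that would set such a dim signal against its background.

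VEGFA, the main growth signal for blood vessel endothelium and a gene induced by low oxygen, had log2 values of 8.26, 8.26 and 8.16 in treated cells, against 9.27, 9.20 and 8.98 in untreated cells. All treated arrays were lower, and the untreated arrays were spread more widely, with SDs of 0.06 in treated and 0.15 in untreated cells. The log2 change was -0.92 ± 0.09 (SE, adjusted p = 1.28e-05), rank 21 among all falls. Untreated replicate 3 was the lowest of its group, and without it the log2 change of VEGFA was -1.01 (adjusted p = 1.07e-05). The probe set reads several VEGFA transcript forms together, so the splice forms that differ in heparin binding were not separated.

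VEGFB, a ligand of FLT1 best known from heart and muscle, moved alongside VEGFA. Its log2 values were 7.69, 7.61 and 7.70 in treated cells, against 8.50, 8.47 and 8.30 in untreated cells. Again untreated replicate 3 was the lowest untreated value, yet it stayed 0.60 above the highest treated one. The log2 change was -0.76 ± 0.08 (SE, adjusted p = 2.35e-05).

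VEGFC drives the growth of lymphatic vessels through FLT4. Its probe set was dim, with 3.87, 3.88 and 3.91 in treated cells, against 3.91, 3.68 and 4.005 in untreated cells. The treated values lay inside the range of the untreated ones. The log2 change was 0.02 ± 0.09 (SE, adjusted p = 0.922), with a 95% interval for the fold from 0.884 to 1.16.

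ANGPT1 activates TEK and steadies vessels, whereas ANGPT2 can block or activate the same receptor depending on context. For ANGPT1 the log2 values were 4.38, 4.27 and 4.09 in treated cells, against 3.47, 3.29 and 3.48 in untreated cells, and the groups did not overlap. The log2 change of ANGPT1 was 0.83 ± 0.09 (SE, adjusted p = 3.98e-05). For ANGPT2 they were 4.42, 4.43 and 4.79 in treated cells, against 3.72, 3.83 and 3.88 in untreated cells. ANGPT2 also rose in every treated array, by a log2 change of 0.74 ± 0.10 (SE, adjusted p = 0.000242). Treated replicate 3 was the highest array for ANGPT2 and the lowest treated array for ANGPT1.

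The 2 angiopoietins, PDGFD and VEGFC were the 4 ligands among the 420 probe sets of lowest mean value, and 3 of the 4 were called. Of those 420 probe sets 18.3% were called, 14.0% as rises and 4.29% as falls, against 43.0% among the brighter probe sets. RMA compresses differences between dim probe sets, so the folds of these 4 may be understated, and signal that comes from background was not tested.

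**Figure D3:**
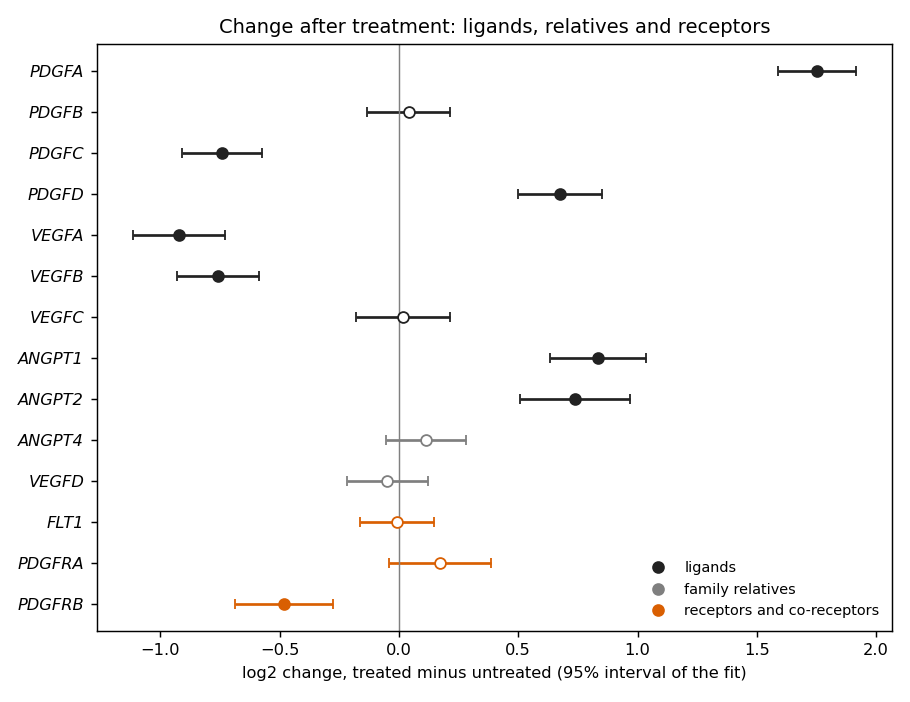
Log2 change, treated minus untreated, with the 95% interval of limma's fit, for the 9 ligands (black), 2 family relatives (grey) and 3 receptors (orange); filled points were called. PDGFA stands at 1.75, the VEGFA and VEGFB intervals overlap below 0, and PDGFRB at -0.48 is the receptor that fell.

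Whether related ligands changed by different amounts was tested in 6 pairs on the per-array difference of their log2 values, with an exact two-sided permutation test over the 6 arrays. With 3 arrays against 3 this exact test cannot give a p below 0.1, and the pairs were picked by family with their values known. The change of PDGFA exceeded that of PDGFB by 1.71 ± 0.09 (SE) on the log2 scale, and no treated array overlapped an untreated one in this difference (exact p = 0.1, 0.12 adjusted over the 6 pairs). PDGFA and PDGFC, which both act through PDGFRA, changed in opposite directions, with a difference of 2.49 ± 0.06 (SE, exact p = 0.1). PDGFD exceeded PDGFC by 1.42 ± 0.11 (SE, exact p = 0.1). The change of VEGFA minus that of VEGFC was -0.94 ± 0.17 (SE, exact p = 0.1). Between VEGFA and VEGFB the difference of the changes was small, -0.16 ± 0.06 (SE, exact p = 0.1), and between ANGPT1 and ANGPT2 it was 0.10 ± 0.22 (SE, exact p = 0.7). In these last 2 pairs both genes moved in one direction.

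The receptors measured here were PDGFRA, PDGFRB and FLT1. PDGFRB, the receptor for the B and D chains, fell by 0.48 ± 0.09 (SE) on the log2 scale, with 4.76, 4.71 and 4.76 in treated cells, against 5.18, 5.07 and 5.42 in untreated cells (adjusted p = 0.00186). PDGFRA, the receptor for the A and C chains, gave 3.60, 3.63 and 3.94 in treated cells, against 3.51, 3.52 and 3.63 in untreated cells (log2 change 0.17 ± 0.10 SE, adjusted p = 0.211). FLT1, which binds VEGFA and VEGFB, had a log2 change of -0.01 ± 0.07 (SE, adjusted p = 0.955). Of 2 relatives of the ligands, VEGFD, a lymphatic growth factor (log2 change -0.05), and the angiopoietin ANGPT4 (0.11), 0 were called by limma and 0 had an unadjusted p under 0.05. These 2 and the receptors PDGFRA and FLT1 were dim. The share of probe sets with means at or below theirs was 9.85% for VEGFD, 27.4% for ANGPT4, 14.6% for PDGFRA and 30.3% for FLT1. PDGFRB was only slightly brighter at 34.6%, and its mean of 4.74 in treated cells was close to that of FLT1, 4.72. Whether the signal of any of these receptors and relatives comes from background was not tested. The lack of a call therefore does not show expression without change, and the fall of PDGFRB is that of a weak signal.

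Among all 927 named genes, the background for the next lists, 183 rose and 163 fell. Of all probe sets 34.8% were called. Other secreted growth factors that act on vessels had 3 rises and 4 falls among 19 measured genes, with a median log2 change of 0.01. The 2 of smallest p were MDK, the heparin-binding factor midkine, which was 2.83-fold higher (adjusted p = 2.88e-07), and TGFB3, a transforming growth factor, which was 3.63-fold lower (adjusted p = 6.94e-07). Of 10 heparan sulfate carriers, the proteoglycans that hold heparin-binding ligands at the cell surface and in the matrix, 1 rose and 1 fell (median 0.10). SDC4, syndecan 4, was 1.63-fold higher (adjusted p = 3.6e-05) and GPC4, glypican 4, was 1.45-fold lower (adjusted p = 0.000983). HPSE, the heparanase that cuts heparan sulfate chains and frees bound growth factors, was the 1 measured gene of its list and was 1.67-fold higher (adjusted p = 7.43e-05). Among 3 inhibitors of vessel growth 1 rose, the chemokine CXCL10, by 0.24 (adjusted p = 0.0255). LDHA, the 1 measured gene of the hypoxia-inducible list and named for that reason, had a log2 change of 0.07 (adjusted p = 0.47), so how VEGFA moved relative to other hypoxia-inducible genes could not be described from a list.

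Genes whose values ran most like those of a ligand were sought by the distance between their 6 values after each was centred on its own mean. Nearest to PDGFA, the rise of smallest p, were MCAM, a cell adhesion molecule (distance 0.334, log2 change 1.88), LGALS1, the galectin 1 gene (0.336, log2 change 1.68), and CXCR4, a chemokine receptor (0.363, log2 change 1.49). Nearest to VEGFA, the fall of smallest p, were GMDS, an enzyme of GDP-fucose synthesis (distance 0.157, log2 change -0.83), IL17D, a cytokine (0.186, log2 change -0.90), and GALNT12, which starts O-glycans (0.191, log2 change -0.96). The measure covers 6 arrays in 2 groups, so it mostly reflects the size of the treatment difference.

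Few of the listed markers of other cell types were measured, and the others were not analysed here. The mean over 3 endothelial markers lay between 4.23 and 4.31 in treated arrays and between 4.15 and 4.35 in untreated arrays, with 1 of 3 called, a rise of PECAM1 by 0.30. Over 5 fibroblast and pericyte markers it lay between 4.19 and 4.35 in treated arrays and between 4.11 and 4.30 in untreated arrays, with 1 rise (BGN) and 1 fall (PDGFRB). BGN was the brightest of these 5, at 7.45 in treated and 7.12 in untreated cells, so the list mean does not describe each marker. Leukocyte markers averaged 4.76 to 4.88 in treated arrays and 4.62 to 4.75 in untreated arrays, with 1 rise (CD33) and 1 fall (CD22) among 3. The mean over 3 colon epithelial markers lay between 8.74 and 8.95 in treated arrays and between 8.20 and 8.26 in untreated arrays. As single genes, LGALS4, MUC1 and MUC13 had means between 8.50 and 9.03 in treated cells and between 7.20 and 9.54 in untreated cells. Of these 3, 2 rose and 1 fell. The measured colon markers thus gave signal in all arrays, although other defining genes such as EPCAM and CDX2 were not analysed here. PECAM1, BGN, CD33, CD22 and the 3 colon markers are named because the counts are small, after their values were seen. The part of other cell types in the ligand changes was not tested.

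The 7 called ligands kept their direction and their call under each other setting that tested them. PDGFA had the smallest p of the ligands in each fit, with adjusted p-values of at most 2.67e-05 in limma's fits. The highest adjusted p among the 7 was 0.00189, for ANGPT2, whose log2 change ranged from 0.62 to 0.80.

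**Figure D4:**
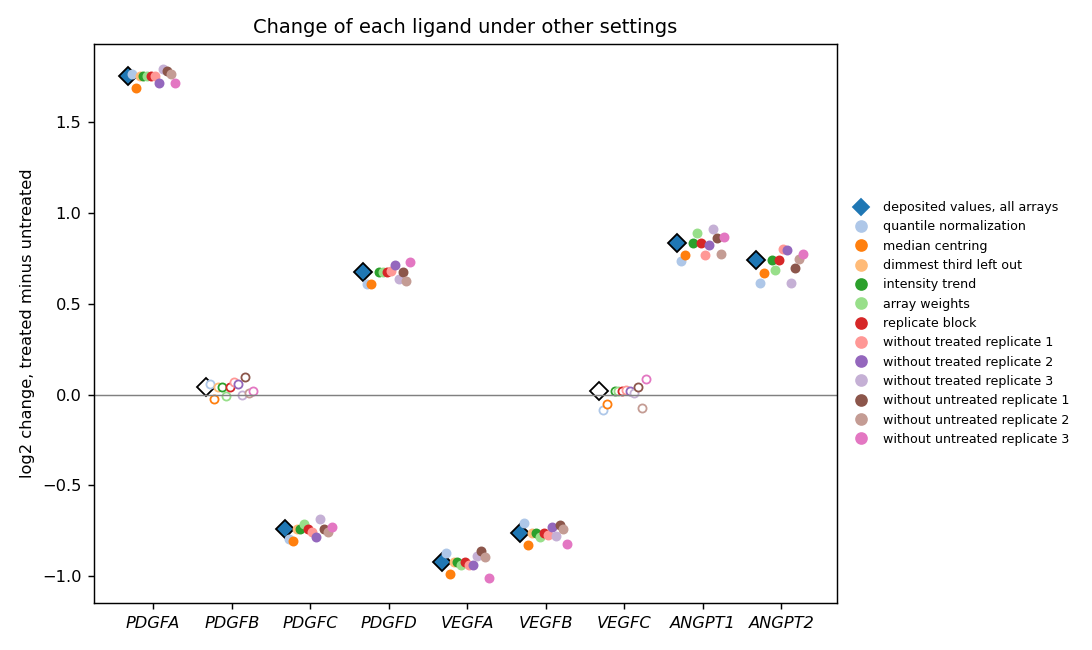
Log2 change of each ligand, treated minus untreated, with the deposited values of all arrays (diamonds) and under each other setting (circles), with filled symbols where the ligand was called. PDGFA stays between 1.69 and 1.79, VEGFA between -0.86 and -1.01, and PDGFB and VEGFC scatter on both sides of 0.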

How the data were processed

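Biotin-labelled cRNA of total RNA was prepared for Affymetrix arrays, as the labels' protocols state. The authors deposited a table of log2 values, 1 column an array; RMA is named per the submitters' processing notes, and the log2 scale was taken from the range of 2.13 to 13.67. The sources used here do not give the platform, build or RMA settings. RMA forces arrays toward one distribution, which would reduce a change shared by most genes.

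Transcript identifiers in the probe set names were matched without version to RefSeq (GRCh38.p14): 1043 of 1259 probe sets took a symbol. For listed genes with several probe sets, that of highest mean stood for the gene. A linear model with treatment as its term was fitted to all probe sets in R 4.3.3 with limma 3.58.1 (lmFit, eBayes), two-sided, with Benjamini-Hochberg adjustment over 1259. The steps were tested on simulated data. Precision is limited by 3 arrays a group. Pairs of arrays correlated at 0.9974 to 0.9987 within groups and at 0.9817 to 0.9844 across them.

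The ligands and the gene lists were chosen with earlier results of these data known. One listed gene is not reported here. Named genes were all ligands, receptors and relatives, the 2 called genes of smallest p in each other list, and the 3 genes nearest to the called ligand of smallest p in each direction. LDHA and the colon marker LGALS4 fall outside this rule. LDHA, LGALS4 and the markers PECAM1, BGN, CD33, CD22, MUC1 and MUC13 were named after their values were seen, since their lists hold few measured genes. Alternatives were quantile normalization, median centring, leaving out the 420 dimmest probe sets, an intensity trend, array weights, a replicate block, each array left out, and stricter thresholds. A planned test between probe sets of one ligand was not applicable with 1 probe set a gene.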

Additional observations from a re-analysis of the deposited data

How the results depend on the processing

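The 7 ligand calls and their directions held under quantile normalization, median centring, an intensity trend, array weights, the stricter thresholds and each array left out (7 called in each of the 6 fits). With the 420 dimmest probe sets left out 4 were called, as PDGFD, ANGPT1, ANGPT2 and VEGFC were no longer among the genes tested. PDGFB and VEGFC, not called under any setting that tested them, changed sign in some. PDGFB was -0.0266 after median centring and -0.00555 with array weights, and -0.00155 to 0.0973 with single arrays left out, below 0 only without treated replicate 3. VEGFC was -0.0877 after quantile normalization and -0.0501 after median centring, and -0.0752 to 0.0859 with single arrays left out, below 0 only without untreated replicate 2. Over all probe sets, 169 passed when at least 1.5-fold was also asked, and leaving out single arrays gave 376 to 440 calls against 438. With the replicate number as a block 394 probe sets and 7 ligands were called. No label says whether same-numbered arrays were grown together. Their deviations from the group means correlated at -0.27, 0.04 and -0.11, and 0 of 6 arrays correlated best with its own number. With 3 arrays a group, this check cannot exclude a pairing. With the mean of all probe sets of a gene the ligands are unchanged by construction. Dim signal limits PDGFD, VEGFC and the angiopoietins, and likewise the receptors PDGFRA and FLT1 and the relatives VEGFD and ANGPT4. PDGFRB was only slightly brighter than FLT1, with a mean log2 value over the 6 arrays of 4.98 against 4.72.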
